A study of Homo sapiens with 3 samples.

Results

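Scavenger and efferocytosis receptors let monocytes and macrophages take up modified lipoproteins, proteases bound to their inhibitors, and dying cells. LRP1 is a large endocytic receptor of the LDL receptor family, and AXL and MERTK are receptor tyrosine kinases that bind dying cells through bridging ligands such as GAS6. CD36, MSR1, OLR1, CD163, MRC1 and STAB1 bind oxidised or acetylated lipoproteins, haemoglobin complexes, mannose-bearing glycoproteins and other cargo, and many of them mark mature macrophages. These 9 receptors were taken by protein accession from a table of 213543 features: LRP1 (Q07954), CD36 (P16671), MSR1 (P21757), CD163 (Q86VB7), OLR1 (P78380), MRC1 (P22897), STAB1 (Q9NY15), MERTK (Q12866) and AXL (P30530). All 9 have a feature. The set was chosen by the counts of LRP1 in these same 3 libraries and by receptor function, so the values of LRP1 describe why it was chosen and support nothing else.

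RNA was sequenced from THP-1 cells, an acute monocytic leukemia line driven by the MLL-AF9 fusion. The cells were untreated (0 h) or treated with 0.2 µM GSK-LSD1, an inhibitor of the histone demethylase LSD1, for 8 h or 24 h. The methods of the study name this dose with the 8 h treatment and do not name one for 24 h. Each time point is 1 library made from total RNA after ribosomal RNA removal, so no difference has a replicate check and no p-value is given. In RNA from a whole culture, a change in the share of cells expressing a gene and a change in RNA per cell cannot be told apart. The library totals, in the order 0 h, 8 h, 24 h used for every set of values here, were 1475938, 1310912 and 1444011 counts. A count of 0 allows up to 3 counts, or 1.95, 2.34 and 2.11 CPM (the count rate after TMM scaling of the totals). Intervals and floors cover counting error alone, because each time point has 1 library. They treat reads as independent molecules, and no use of molecular identifiers is given in the sources used here, so they may be too narrow.

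The 8 h library stood apart in its mitochondrial ribosomal RNA. The counts of MT-RNR2 were 1661, 9 and 743, and those of MT-RNR1 were 712, 3 and 271. The part of this difference in the results was not tested at 8 h. For 24 h against 0 h, scaling the 2 libraries without the 8 h library gave a log2 ratio of 4.05 for LRP1 and 0.83 for AXL, beside 4.04 and 0.82 with it.

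The label of a monocytic line was checked on 12 markers. Their summed level was 1092, 1384 and 2170 CPM. LYZ, the most abundant with 655, 747 and 1773 counts, made up 426, 583 and 1248 CPM of it. Of the 7 markers that reached 10 counts, SPI1, LYZ, CD4 and ITGAM had a counting interval above 0 at both treated times. Over all 9609 features that reached 10 counts, the share above 0 was 11.7% at 8 h and 13% at 24 h. PTPRC, with 617, 522 and 521 counts, had intervals that held 0 (log2 ratio -0.13 at 24 h). The protein features of CD33 and CSF1R were at 0 in every library. A retained-intron transcript of CD33 with its own feature had 67, 44 and 45 counts, and one of CSF1R had 6, 2 and 2. The 12 markers of T cells, B cells, red cells, platelets, epithelium and stroma summed to 0, 4 and 3 counts. Of these, 10 were at 0 in every library and COL1A1 was the most abundant. CD86, a costimulatory ligand used to follow myeloid differentiation, had 1, 19 and 37 counts. Its log2 ratio was 4.51 at 8 h against 0 h (95% counting interval 1.86 to 9.89) and 5.32 at 24 h against 0 h (2.76 to 10.66). These ratios rest on 1 count at 0 h, and over the alternatives tried they ranged from 2.13 to 4.51 and from 2.82 to 5.33. KDM1A, which encodes LSD1, had 1, 0 and 1 counts.

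LRP1 and AXL were the 2 receptors counted well enough to compare. LRP1 was higher at each later time, AXL differed by no more than its counting error, and the other 7 receptors had at most 1 count in any library. Of these 7, CD36, OLR1, CD163, STAB1 and MERTK were listed at 0 throughout. MSR1 had 1, 0 and 1 counts, and MRC1, the mannose receptor, had 1, 0 and 0. No fold change is given for these 7 receptors, because every one of their counts lies at or under the floor.

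**Figure D1:**
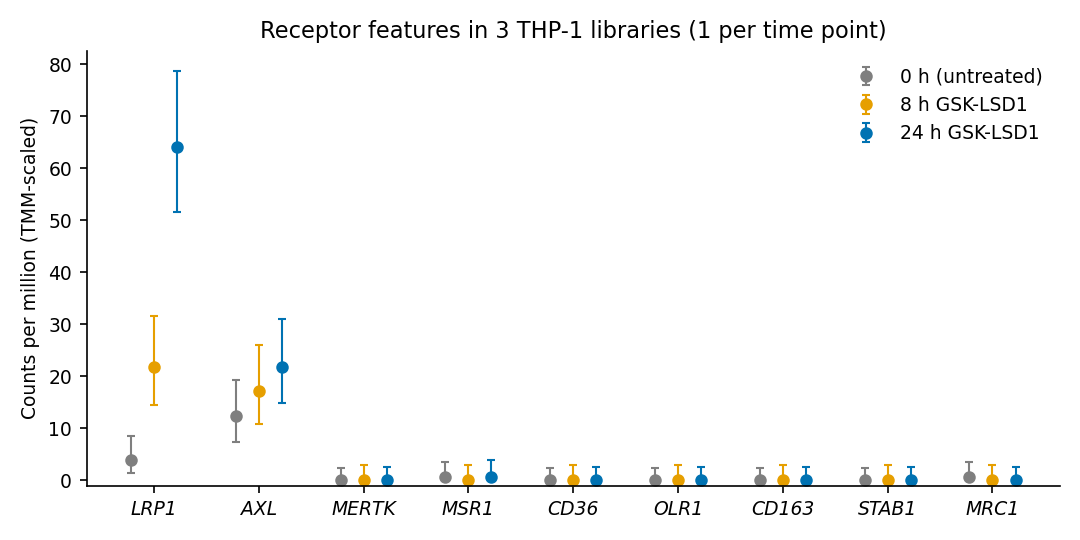
TMM-scaled level (CPM) of the 9 receptor features at 0 h, 8 h and 24 h, 1 library each; bars are exact 95% Poisson intervals of the count and cover counting error only. LRP1 lies at 3.91, 21.9 and 64.1 CPM with intervals that do not overlap, AXL at 12.4, 17.2 and 21.8 CPM with overlapping intervals, and the other 7 near 0.

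LRP1 lies on the forward strand at chr12:57128483-57213361 of GRCh38. GENCODE v44 annotates 12 transcripts of the gene, 6 of them protein-coding, and the MANE Select transcript (the agreed reference transcript) has 89 exons and 14923 bp. The LRP1 feature had 6, 28 and 91 counts. Their exact 95% Poisson intervals ran from 2.20 to 13.1, from 18.6 to 40.5 and from 73.3 to 112. The lowest library was the untreated one and the highest the 24 h one, and no pair of these intervals overlapped.

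At 8 h the LRP1 level was 5.60-fold that at 0 h (95% counting interval 2.27 to 16.5), a log2 ratio of 2.49 (1.19 to 4.05). At 24 h it was 16.4-fold that at 0 h (7.25 to 45.9), a log2 ratio of 4.04 (2.86 to 5.52). Between the treated libraries, 24 h was 2.93-fold above 8 h (1.90 to 4.65), a log2 ratio of 1.55 (0.93 to 2.22). The lower bounds of the 2 ratios against 0 h are far below the point values because the untreated library holds 6 counts.

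Fold changes over all features were taken on log2 CPM with a prior count of 2, which pulls low counts toward no change. On that scale LRP1 was higher by 2.13 at 8 h, 3.62 at 24 h and 1.49 from 8 h to 24 h. Only LRP1 and AXL, 2 of the 9 receptors, reached 10 counts in any library and enter the tallies, so the other 7 could not be called in either direction. LRP1 reached 10 counts only in the treated libraries, where it was higher. Of the 9609 features that reached 10 counts, 0.406% were higher by over 2 at 8 h and 0.978% at 24 h, and LRP1, 1 of the 2 receptors tallied, was among them each time. With a prior count of 5 the LRP1 value at 8 h was 1.77, under that threshold. From 8 h to 24 h, 0.208% were higher by over 2, with neither LRP1 nor AXL, and 4.03% were higher by over 1, with LRP1 but not AXL. The share with a counting interval wholly above 0 was 11.7% at 8 h, 13% at 24 h and 4.87% from 8 h to 24 h, and LRP1 but not AXL was among them. By size of increase LRP1 ranked 30 of 9609 at 8 h, 4 at 24 h and 91 from 8 h to 24 h. Neither LRP1 nor AXL was lower by either threshold or by its interval: by over 2, 0.302% of features were lower at 8 h, 0.333% at 24 h and 0.052% from 8 h to 24 h, and by over 1 these shares were 6.02%, 5.58% and 1.97%. Features higher by over 1 made up 4.51% at 8 h and 6.19% at 24 h, and intervals below 0 made up 9.71% at 8 h, 12.6% at 24 h and 5.58% from 8 h to 24 h. These ranks and shares describe LRP1 and are no test, because its change was the ground for choosing it.

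AXL lies on the forward strand at chr19:41219223-41261766, and its MANE Select transcript has 20 exons and 4717 bp. Its feature had 19, 22 and 31 counts, with Poisson intervals from 11.4 to 29.7, from 13.8 to 33.3 and from 21.1 to 44.0. The order of the levels was the order of time, but every pair of neighbours overlapped. The log2 ratio was 0.47 at 8 h against 0 h (-0.48 to 1.44), 0.82 at 24 h against 0 h (-0.05 to 1.73) and 0.35 at 24 h against 8 h (-0.49 to 1.20). A change of AXL was therefore not detectable at this depth, and at 24 h against 0 h the interval allows anything from 0.97-fold to 3.31-fold.

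Levels of different genes were set side by side only per kilobase of the MANE Select transcript. On this scale LRP1 was at 0.262 CPM per kb at 0 h, 1.47 at 8 h and 4.29 at 24 h. AXL was at 2.62, 3.64 and 4.63 CPM per kb. LRP1 was thus the lower of the pair in every library, with the levels closest, and within counting error of each other, at 24 h. The length is that of the whole transcript, and how much of it could collect reads in the counting is not known.

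A count of 0 in this table does not show that a gene was silent. Of 20 housekeeping genes, picked after the values had been seen, 17 have a feature, and 10 of the 17 had at most 3 counts in every library. CLTC, LDHA, PGK1 and ENO1 were listed at 0 in every library, while EEF2 had 4348, 4732 and 5123 counts. The handling of reads shared by several features is not given in the sources used here. The next shares pool the listed genes with these housekeeping genes, which were picked after their values had been seen. A base of a transcript's own lies outside every other annotated transcript on either strand. Among genes whose MANE Select transcript has no base of its own, 33 of 50 (66.0%) had at most 3 counts. This share was 22 of 42 (52.4%) for genes with up to 10% of bases of their own, 15 of 31 (48.4%) for 10% to 50%, and 6 of 21 (28.6%) above 50%.

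The receptors spanned this whole range. MRC1, at chr10:17809348-17911164, has 1 annotated transcript, and all 5188 bp (100%) are its own. The shares were 52.88% for LRP1, 49.43% for OLR1, 31.46% for AXL, 22.29% for STAB1 and 11.81% for MERTK. CD163 had 0.05%, and CD36 and MSR1 had none. The share does not settle what a low count means for a single gene. PGK1, with 52.04% of bases of its own, and CLTC, with 22.03%, were listed at 0, while SORT1 was well counted with 0.86%. Transcripts of the 9 genes that have a feature under their own Ensembl identifier added little. A retained-intron transcript of LRP1 (ENST00000556356) had 1, 0 and 0 counts, one of CD36 (ENST00000464213) had 2, 1 and 1, and the rest were at 0.

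**Figure D2:**
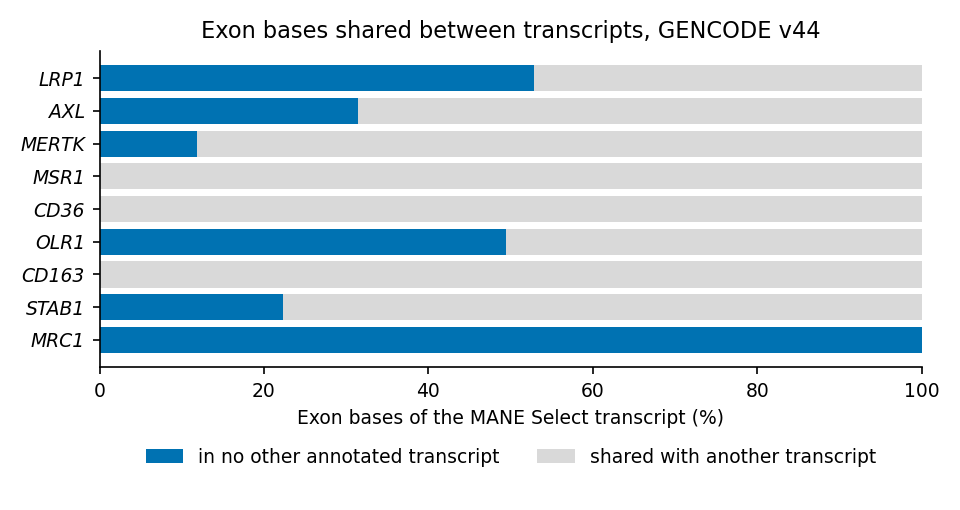
Percent of the exon bases of each receptor's MANE Select transcript that lie in no other transcript of GENCODE v44 (blue) or in at least 1 other (grey), on either strand. MRC1 is at 100%, LRP1 at 52.88% and AXL at 31.46%, while CD163, CD36 and MSR1 are at or near 0%.

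The promoters of LRP1 and AXL are shown because these are the receptors with counts to compare. Each runs from 250 bases before to 50 bases after the start (RefSeq, GRCh38.p14), 5' to 3' on the gene's strand, at chr12:57128233-57128532 for LRP1 and chr19:41218973-41219272 for the first of 2 AXL entries. Capitals mark matches to any of 6 motifs searched on both strands.
LRP1: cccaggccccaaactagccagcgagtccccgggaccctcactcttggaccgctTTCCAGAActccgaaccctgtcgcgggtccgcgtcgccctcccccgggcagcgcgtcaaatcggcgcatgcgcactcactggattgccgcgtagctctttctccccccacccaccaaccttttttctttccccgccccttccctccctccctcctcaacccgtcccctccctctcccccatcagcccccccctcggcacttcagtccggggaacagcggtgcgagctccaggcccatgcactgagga
AXL: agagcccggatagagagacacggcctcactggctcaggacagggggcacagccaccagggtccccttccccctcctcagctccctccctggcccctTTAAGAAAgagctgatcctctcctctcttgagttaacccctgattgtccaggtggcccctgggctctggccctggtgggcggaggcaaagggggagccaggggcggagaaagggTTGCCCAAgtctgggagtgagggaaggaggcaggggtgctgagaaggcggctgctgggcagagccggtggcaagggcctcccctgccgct
All capitals are matches to TTNNGNAA, a C/EBP motif, which 36.84% of 35116 promoters of this length hold. LRP1 has 1 match, on the reverse strand and 197 bases before the start. AXL has 2 in the window shown, at 154 bases before the start on the forward strand and 40 bases before it on the reverse strand. The second AXL entry, at chr19:41226505-41226804, has no match to any of the 6 motifs. The other motifs, none of which matched in these windows, were AAATCA for GFI1 (in 13.17% of promoters), GAGGAAGT for PU.1 (2.589%), TCACNCCAC for SREBP (1.128%), the direct repeat bound by LXR (0.01993%) and TGANTCA for AP-1 (7.709%). The LRP1 window is 67.0% G and C, against a median of 58.67% over all promoters, and 26.88% of promoters are higher. A match says only that these letters occur in the window. MSR1, OLR1 and MRC1 have no entry in the promoter table.

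Features were ordered by how near their pair of log2 fold changes at 8 h and 24 h lay to that of LRP1, among the 4218 features that reached 50 counts. The nearest over the 3 libraries was P04839, with 52, 156 and 499 counts and a distance of 0.44. Next was Q9Y2E6, with 23, 68 and 211 counts and a distance of 0.58. Both are protein accessions that the table does not pair with a gene name. CD209, a C-type lectin receptor of myeloid cells, came 17th at a distance of 1.43 and was named after its place had been seen. Both fold changes use the same 0 h library, so their likeness is in part shared by construction. The place of LRP1 itself rests on 6 counts at 0 h. Its log2 ratios had counting intervals of 1.19 to 4.05 at 8 h and 2.86 to 5.52 at 24 h. These counts therefore do not resolve the order of the neighbours.

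**Figure D3:**
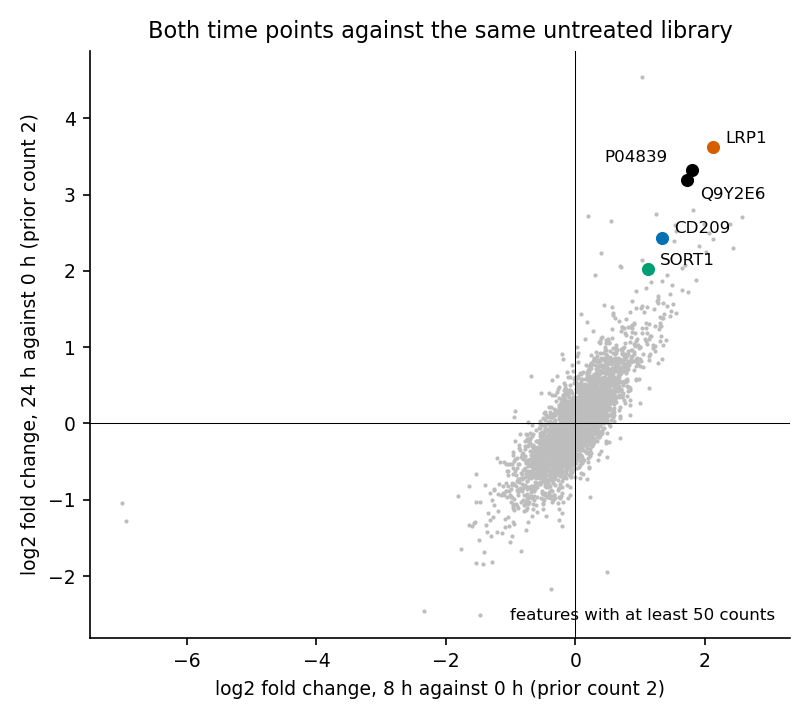
Log2 fold change (TMM, prior count 2) at 8 h against 0 h (horizontal) and at 24 h against 0 h (vertical) for the features that reached 50 counts (grey points); both axes share the 0 h library. LRP1 (orange) lies at 2.13 and 3.62, next to the accessions P04839 and Q9Y2E6 (black), with CD209 (blue) and SORT1 (green) at smaller increases.

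Related genes were described in 6 lists holding 101 genes. Of these, 99 have a feature, 47 had at most 3 counts in every library and 36 had at least 10 counts. Of the 36, 8 had a counting interval above 0 and 7 below 0 at 8 h against 0 h (22.2% and 19.4%), and 8 lay above and 8 below at 24 h (22.2% each). Over all 9609 features the shares were 11.7% above and 9.71% below at 8 h, and 13% above and 12.6% below at 24 h. The median log2 fold change of the 36 genes was 0.17 at 8 h and 0.05 at 24 h, against -0.01 at both times over all features. With total counts, 5 lay above and 9 below at 8 h, and 8 above and 10 below at 24 h, so which side held more genes depended on the scaling.

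In the LDL receptor family, to which LRP1 belongs, 8 of 14 genes had at least 10 counts. SORT1, a sorting receptor grouped here with the family, had 79, 145 and 304 counts, with a log2 ratio of 1.14 at 8 h (0.73 to 1.55) and 2.06 at 24 h (1.70 to 2.43). VLDLR, a receptor for triglyceride-rich lipoproteins, had 194, 112 and 90 counts and a log2 ratio of -0.99 at 24 h (-1.37 to -0.63). LRP8, a reelin receptor, had 152, 81 and 100 counts and a log2 ratio of -0.49 at 24 h (-0.87 to -0.12). The feature of SORT1 was therefore higher in both treated libraries, and those of VLDLR and LRP8 were lower in both. For LRP8 this covers its protein feature alone. Several LRP8 transcripts have features of their own, among them a retained-intron transcript with 61, 46 and 59 counts and a coding transcript with 6, 3 and 12. A ratio with these added was not computed, so a lower level of LRP8 as a whole gene was not shown. SORL1, with 277, 264 and 280 counts, and LRP10, with 103, 104 and 112, had intervals that held 0. The family's median log2 fold change was 0.35 at 8 h and 0.18 at 24 h.

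Of 17 other scavenger and lectin receptors, 3 had at least 10 counts. CD209 had 50, 108 and 259 counts, with a log2 ratio of 1.37 at 8 h (0.88 to 1.89) and 2.49 at 24 h (2.04 to 2.95). Of the exon bases of the MANE Select transcripts, 46.92% for CD209 and 72.39% for LY75 overlap other genes on either strand. The strand used in the counting is not given, so the counts of both may be uncertain. The overlapping share was 40.2% for LYZ and 43.87% for CEBPA, whose counts may be uncertain in the same way. LY75, an endocytic lectin receptor of dendritic cells, had 64, 33 and 29 counts and a log2 ratio of -1.03 at 24 h (-1.71 to -0.37). SCARB1, the HDL receptor, had 34, 31 and 38 counts and an interval that held 0. CD209 was thus higher and LY75 lower at 24 h, and 9 of the 17 had at most 3 counts in every library. The list's median was 0.12 at 8 h and 0.26 at 24 h.

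Of 23 genes for the recognition of dying cells, 21 have a feature and 6 had at least 10 counts. TREM2, a lipid-sensing receptor of macrophages, had 297, 221 and 169 counts and a log2 ratio of -0.70 at 24 h (-0.98 to -0.42). It was the 1 gene of the list with an interval away from 0 at 24 h with TMM, and with total counts ITGAV, an integrin subunit that binds bridging ligands, also lay below 0 (-0.31, -0.62 to -0.01). GAS6, the bridging ligand of AXL and MERTK, had 61, 46 and 51 counts and a log2 ratio of -0.15 at 24 h (-0.71 to 0.42). At 8 h the intervals of SIRPA and ITGAV lay above and below 0, and MFGE8, TIMD4, C1QA and C1QB were listed at 0 throughout. The median of this list was -0.15 at 8 h and -0.09 at 24 h.

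Of 16 ligands, chaperones and proteases of LRP1, 6 had at least 10 counts. LRPAP1, the chaperone that keeps ligands off LRP1 during its transport, had 179, 171 and 116 counts and a log2 ratio of -0.51 at 24 h (-0.86 to -0.17). FURIN, the protease that cleaves the LRP1 precursor, had 219, 150 and 154 counts and a log2 ratio of -0.39 at 24 h (-0.70 to -0.09). ADAM10, which can shed the LRP1 ectodomain, had 358, 218 and 215 counts and a log2 ratio of -0.62 at 24 h (-0.87 to -0.37). These 3 of the 6 genes had an interval below 0 at 24 h, as did 12.6% of the 9609 features that reached 10 counts. No difference between these shares was tested. PLAUR, the urokinase receptor, had 2, 10 and 11 counts and a log2 ratio of 2.57 at 24 h (0.38 to 5.79), and was named after its values had been seen. It reached 10 counts only in the treated libraries, so its place among the genes above 0 at both times depends on its being higher there. The list's median log2 fold change was -0.04 at 8 h and -0.39 at 24 h.

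Of 16 genes of engulfment and endocytosis, 8 had at least 10 counts. ELMO1, part of an activator of RAC1, had 57, 49 and 81 counts and a log2 ratio of 0.62 at 24 h (0.11 to 1.14). DAB2, an adaptor for LDL receptor family tails, had 58, 61 and 89 counts and a log2 ratio of 0.73 at 24 h (0.24 to 1.23). RAB5A, a GTPase of early endosomes, had 94, 50 and 57 counts and a log2 ratio of -0.61 at 24 h (-1.11 to -0.12). At 24 h, then, 2 genes of this list were higher and 1 lower, and the median was 0.12 at 8 h and 0.15 at 24 h.

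Of 15 sterol and macrophage regulators, 5 had at least 10 counts. ABCA1, a cholesterol exporter, had 357, 185 and 508 counts. Its log2 ratio was -0.69 at 8 h (-0.95 to -0.43) and 0.62 at 24 h (0.42 to 0.82), so it was lower than at 0 h in one treated library and higher in the other. SPI1, which encodes PU.1, had 69, 87 and 102 counts and a log2 ratio of 0.68 at 24 h (0.22 to 1.14). The liver X receptor gene NR1H3 had 3, 0 and 1 counts, and SREBF2 was listed at 0. The median over the 5 genes was 0.16 at 8 h and 0.62 at 24 h.

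**Figure D4:**
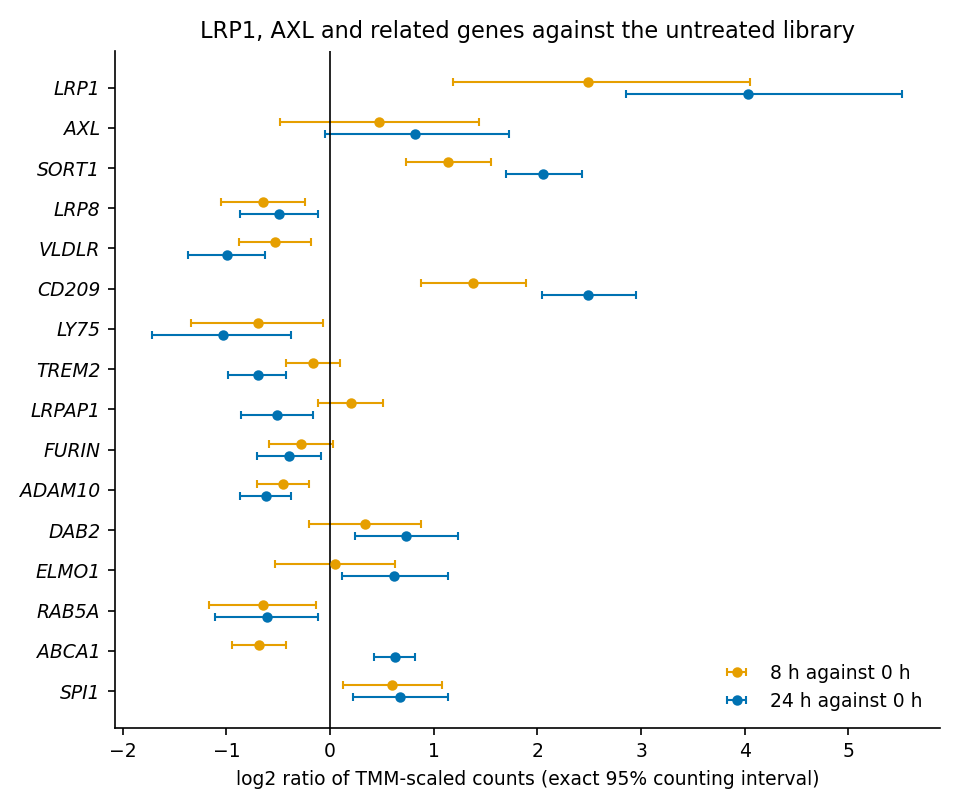
Log2 ratio of TMM-scaled counts against the 0 h library for LRP1, AXL and 14 related genes, at 8 h (orange) and 24 h (blue); bars are exact 95% counting intervals and the vertical line marks no difference. LRP1, SORT1 and CD209 lie farthest to the right at 24 h, the intervals of AXL hold 0, and ABCA1 lies on opposite sides of 0 at the 2 times.

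The scaling moved the balance of the calls at both times. With TMM, 54.6% of the features whose interval excluded 0 at 8 h lay above it, and 50.7% at 24 h. With total counts these shares were 37.5% and 38.4%. Under total counts CEBPA and RAC1 were among the related genes that no longer lay above 0 at 8 h. Scaling to accession totals moved the median log2 fold change of all features at 8 h to -0.108, and SIRPA then held 0 too. The genes named above as called with TMM for 24 h against 0 h kept their side of 0 with DESeq2 size factors, total counts and accession totals, while ITGAV was below 0 with both kinds of totals and not with TMM or DESeq2 size factors.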

How the data were processed

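The submitters' processing notes name fastp, STAR and hg38, and the study used Seq2science. The authors deposited raw whole-number counts of each feature. Which tool counted the reads, on which annotation and strand, and what became of shared reads are not given in the sources used here. The receptors and lists were chosen with earlier results of these data known. The table pairs no accession with a gene: the 9 receptor names come with their accessions, and those of the lists were assigned by hand.

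Library sizes were scaled by TMM (edgeR 4.0.16, R 4.3.3) on features that reached 10 counts, with factors of 1.04, 0.977 and 0.984 at 0 h, 8 h and 24 h. Single ratios used no prior count, with exact (Clopper-Pearson) 95% intervals conditional on the sum of both counts. They compare libraries, not conditions. A count of 0 was set to 3 as a bound, and counts of 1 to 3 were kept, which departs from the planned bound for all counts up to 3. Fold-change counts used log2 CPM with a prior count of 2. Named genes were the receptors, CD86, KDM1A, list genes with at least 20 counts whose interval at 24 h excluded 0, the nearest features to LRP1, and list genes at 0; some of these are not reported here. SORL1, LRP10, SCARB1, GAS6, NR1H3, PLAUR, CEBPA, RAC1, SIRPA, ITGAV, COL1A1, MT-RNR1, MT-RNR2 and the housekeeping genes were named after their values were seen. Scripts ran in Python 3.11.15 and were tested on simulated data. Alternatives used DESeq2 1.42.0 size factors, total counts, other priors, filters and a 99% interval, and the 24 h scaling without 8 h was added after seeing the data.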

Additional observations from a re-analysis of the deposited data

How the results depend on the processing

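No paired analysis was possible because each time point has 1 library. LRP1 stayed above 0 in every alternative, with log2 ratios from 1.77 to 2.49 at 8 h against 0 h, 3.18 to 4.05 for 24 h against 0 h, and 1.41 to 1.57 between the treated libraries. AXL ranged from 0.37 to 0.48, 0.67 to 0.83 and 0.29 to 0.36, and CD86 from 2.13 to 4.51, 2.82 to 5.33 and 0.69 to 0.83. No log2 ratio of LRP1 or AXL changed sign. The alternatives reuse the counts of the same libraries, so this is no further support for a change, and the AXL intervals held 0. Across the alternatives, 91 values answering a comparison stayed within their interval or within 1.5 times the main count while 27 moved.

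Counts of features depended on the filter and the prior, and the cause was not tested beyond the number of features each admits. Main counts follow in brackets. Higher by over 2 at 8 h [39] were 76 with no filter, 8 with at least 50 counts, 84 with a prior of 0.5 and 7 with a prior of 5. The 24 h against 0 h count [94] was 28 with at least 50 counts, 162 with a prior of 0.5 and 36 with a prior of 5. At 24 h against 8 h [20] there were 38, 5, 67 and 6 in the order given for 8 h. Higher by over 1 at 8 h [433] were 3277 with no filter, 88 with at least 50 counts and 255 with a prior of 5. The 24 h against 0 h count [595] was 2474 with no filter and 132 with at least 50 counts, and between the treated libraries [387] it was 1865, 24 and, with a prior of 5, 156.

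With a 99% interval, features above 0 were 716 at 8 h [1122] and 211 between the treated libraries [468]. Those below 0 were 496 at 8 h [933], 715 for 24 h against 0 h [1212] and 249 between the treated libraries [536]. Among features that reached 50 counts, 614 lay below 0 at 8 h and 303 above 0 between the treated libraries. With total counts, 5 related genes lay above 0 at 8 h [8] and 9 below [7], and at 24 h 8 lay above [8] and 10 below [8]. Over all features, total counts turned the balance of calls from more above 0 (54.6% at 8 h, 50.7% at 24 h) to more below (37.5% and 38.4% above). Depth limits what 6 counts of LRP1 at 0 h can show, and receptors at the floor allow no comparison.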
